A study of Homo sapiens with 6 samples.

Results

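The genes described here are the zinc finger genes with a ZNF symbol that MDA-MB-231 cells expressed at a clear level. MDA-MB-231 is a human triple-negative breast cancer (TNBC) cell line, and NEK2 is a mitotic serine/threonine kinase. RNA-seq was performed on 3 libraries of cells that received pooled control siRNAs (si-CTRL) and 3 libraries of cells that received pooled NEK2-targeting siRNAs (si-NEK2). Per the labels the cells received both rounds of the same siRNA and were collected 24 h after the second round, whereas the study's methods state another interval, counted from transfection, and all 6 libraries come from this 1 line. Members were chosen by symbol and level: a gene was a member if its symbol was ZNF followed by digits alone and its mean over the 6 libraries was at least 1000 normalized counts, that is, assigned reads divided by the size factor of the library. This rule found 157 of the 74852 rows of the table, among 455 ZNF rows of any level. A further 224 ZNF rows were tested but lay below 1000, and 74 had a mean under 10 and were not tested. Since the rule used the mean of both groups, 141 members had both group means at 1000 or above, 11 only the si-CTRL mean and 5 only the si-NEK2 mean. Another 20 of the 157 rows carried several symbols of overlapping or merged loci, such as ZNF525 and ZNF765, and their values cannot be divided between the genes.

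Most ZNF proteins bind DNA through arrays of C2H2 zinc fingers, in which cysteines and histidines hold a zinc ion. A large share of them also carry a KRAB domain, which recruits TRIM28 (KAP1). TRIM28 in turn brings the histone H3 lysine 9 methyltransferase SETDB1, HP1 proteins and deacetylase complexes to the bound site, and many of the known targets are transposable elements. In the human genome these genes have multiplied by local duplication and many lie in dense arrays on chromosome 19. Reads shared between near-identical copies can be lost or split in counting, and how such reads were treated is not given in the sources used here.

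The libraries held 52625492 to 87454509 assigned reads. NEK2 had 3702, 3323 and 3290 normalized counts in si-CTRL and 284, 362 and 388 in si-NEK2, which left 10.0% of the transcript. Its log2 fold change was -3.32 (SE, standard error, 0.12, adjusted p = 1.86e-06, limma), and leaving out any 1 library kept it between -3.42 and -3.19. The markers of the line were as the label states: the means of VIM, CD44, CAV1, AXL and SPARC ranged from 42786 to 148000 normalized counts, and the means of ESR1, PGR, CDH1 and EPCAM did not pass 6.95. GATA3 was at 287 to 542, and PTPRC, CD3E, PECAM1 and ALB, which mark other cell types, did not pass 25.4 in any library. In a principal component analysis the first component (61.7% of the variance) separated the groups, while si-CTRL replicate 1 stood apart from the other libraries on the second (16.2%). This library also lay farthest from the median of its group for 104 of the 157 members. Nothing in the labels shows that the 3 libraries of a group came from separate cultures, so that p-values measure the spread between these libraries.

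Silencing of NEK2 was followed by changes in both directions among the ZNF genes, and most of these were small. A gene was called regulated where it changed by 1.5-fold or more in either direction with a p-value no higher than 0.05, from limma on log2(normalized count + 1). By this rule 13 of the 157 members were regulated, 2 higher and 11 lower in si-NEK2, which is 8.28% of them. Over all 18717 genes tested 22.5% were regulated, 8.23% higher and 14.3% lower. Among the 7995 genes with a mean of at least 1000, the level of the members themselves, 15.2% were regulated, 7.92% higher and 7.32% lower. The share of members that were higher was 1.27% and the share that were lower was 7.01%. The count depends on the mean level that makes a member, because 7 of the 13 had only 1 group mean at 1000 or above, and 6 of the 141 members with both group means at 1000 were regulated.

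The median log2 fold change of the members was -0.05 with quartiles of -0.27 and 0.21, beside 0.01 for all genes tested and 0.12 for genes with a mean of at least 1000. With rows of a single symbol the members' median was 0.00, and with the libraries scaled to equal totals it was -0.17, a scaling that moved the median of all genes to -0.11. No direction is therefore read from the median. The whole range ran from -1.68 to 0.82, and 153 of the 157 changed by less than 2-fold. At an adjusted p of at most 0.05, whatever the size of the change, 30 members were higher, 40 were lower and 87 did not pass. The shares called this way were 21.8% higher and 21.3% lower over all genes tested, and 35.5% higher and 18.8% lower among genes with a mean of at least 1000. With equal totals the members divided into 15 higher and 56 lower. The number of members called higher fell to 15 without si-NEK2 replicate 2, where 34 were lower, and without si-CTRL replicate 1 there were 47 in each direction. The values of the si-CTRL and si-NEK2 libraries did not overlap for 91 of the 157 members (57.96%), 41 of them higher and 50 lower in si-NEK2, beside 55.0% of all genes tested and 65.4% of genes with a mean of at least 1000. Summed over the members, the reads made up 0.656% to 0.664% of the assigned reads in si-CTRL libraries and 0.595% to 0.608% in si-NEK2 libraries. The summed normalized counts of the members were 431530 to 433570 in si-CTRL and 425020 to 437920 in si-NEK2, and these ranges overlap. The lower share is therefore not read as a fall of the members.

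**Figure D1:**
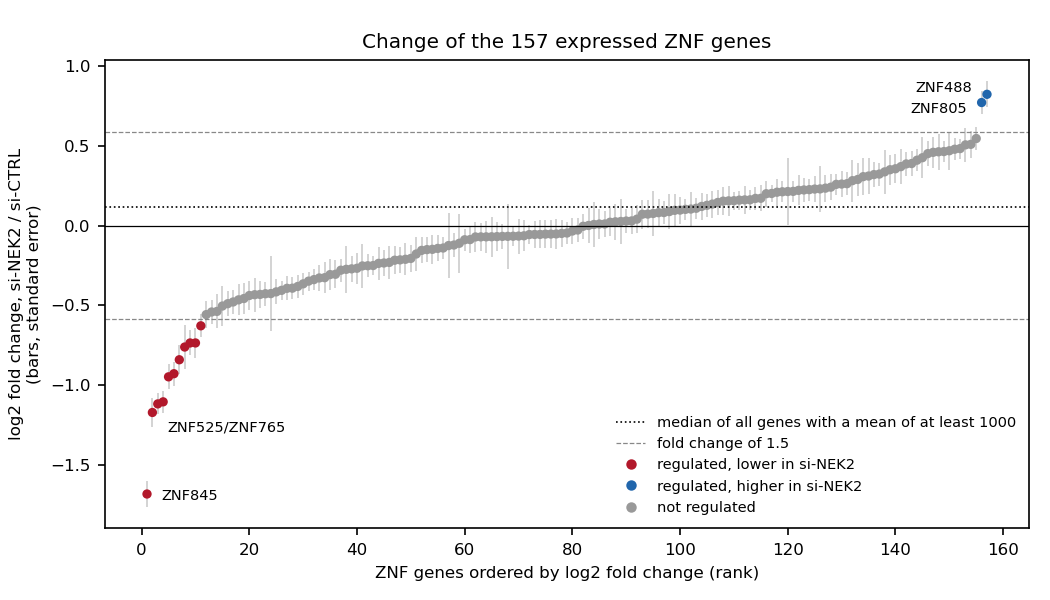
Log2 fold change (si-NEK2 over si-CTRL) of the 157 expressed ZNF genes in order of size, with standard errors as bars. The 11 genes that were regulated and lower reach -1.68 on the left, the 2 that were regulated and higher reach 0.82 on the right, and the dotted line marks the median of 0.12 of all genes with a mean of at least 1000.

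ZNF845, a KRAB zinc finger gene (GSHG0015159, chr19:53836972-53859372, hg19), showed the largest decrease. It had 1866, 1907 and 1802 normalized counts in the si-CTRL libraries and 554, 565 and 618 in the si-NEK2 libraries. The highest si-NEK2 library stood far below the lowest si-CTRL library, and the mean fell from 1858 ± 52.7 to 579 ± 34.1 (SD, n = 3), a remainder of 31.1%. The change on the log2 scale was -1.68 (SE 0.08, adjusted p = 4.31e-06).

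The row that joins ZNF525 and ZNF765 (chr19:53868958-53930572) had 1384, 1583 and 1559 normalized counts in si-CTRL and 635, 709 and 663 in si-NEK2. ZNF765 is a KRAB zinc finger gene, and 44.3% of the signal of the joined row remained, a log2 fold change of -1.17 (SE 0.09, adjusted p = 2.99e-05). The neighbouring row of ZNF761 and the tropomyosin pseudogene TPM3P9 (chr19:53935227-53961514) had 1964, 1999 and 1899 in si-CTRL and 893, 915 and 915 in si-NEK2. Both groups were tight and far apart, and the log2 fold change was -1.10 (SE 0.07, adjusted p = 1.34e-05).

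On the same arm ZNF83 (chr19:53115620-53193834) fell from 1626, 1359 and 1570 normalized counts to 818, 893 and 825, a log2 fold change of -0.84 (SE 0.09, adjusted p = 0.000181). ZNF160 (chr19:53569867-53606687), a KRAB zinc finger gene, fell from 1535, 1476 and 1432 to 886, 843 and 939, a log2 fold change of -0.74 (SE 0.08, adjusted p = 0.000162). In both genes all 3 si-NEK2 libraries were under every si-CTRL library.

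The other 6 decreases were on chromosomes 1, 15, 16 and X. ZNF697 (chr1:120162000-120190390) had 3305, 3366 and 3376 normalized counts in si-CTRL and 1600, 1526 and 1504 in si-NEK2, and its log2 fold change was -1.12 (SE 0.07, adjusted p = 8.90e-06). Its replicates differed by little, with SDs of 38.5 and 50.2. ZNF267, a KRAB zinc finger gene (chr16:31885079-31928629), had 8220, 6937 and 7551 in si-CTRL and 3712, 4085 and 3954 in si-NEK2, a log2 fold change of -0.95 (SE 0.08, adjusted p = 4.84e-05). Close to it on the short arm of chromosome 16, ZNF720 (chr16:31724550-31772885) had 1305, 1254 and 1283 in si-CTRL and 835, 844 and 807 in si-NEK2. Its log2 fold change was -0.63 (SE 0.07, adjusted p = 0.000245), and as the eleventh decrease it was named after its values were seen. Both neighbours fell, without overlap between the groups.

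ZNF710 (chr15:90544723-90625431) had 1676, 1542 and 1552 normalized counts in si-CTRL and 848, 846 and 810 in si-NEK2, a log2 fold change of -0.93 (SE 0.08, adjusted p = 4.33e-05). ZNF609 (chr15:64791619-64978267), which encodes a large nuclear zinc finger protein and is also the host of a known circular RNA, had 13846, 11819 and 10660 in si-CTRL and 6987, 7245 and 7464 in si-NEK2. The si-CTRL libraries of ZNF609 were spread, with replicate 1 the highest, yet the lowest of them exceeded each si-NEK2 library, and the log2 fold change was -0.74 (SE 0.09, adjusted p = 0.000396). Whether reads of the circular RNA contribute cannot be read from a value per gene. ZNF185 (chrX:152082986-152142024) is an exception by function, as it encodes a LIM domain protein of the actin cytoskeleton and not a C2H2 protein. It had 3462, 2403 and 2735 in si-CTRL and 1606, 1531 and 1900 in si-NEK2, with the largest standard error of the 13 (0.14), a log2 fold change of -0.76 and an adjusted p of 0.00232. Leaving out a library moved this value between -0.88 and -0.62.

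Of the 157 members, ZNF488 and ZNF805 were regulated and higher, joined by 1 more without si-CTRL replicate 1. ZNF488 (chr10:48355075-48373864), described as a repressor that acts with OLIG2 in oligodendrocytes, had 1209, 1416 and 1238 normalized counts in si-CTRL and 2330, 2250 and 2240 in si-NEK2. Its mean rose from 1288 ± 112 to 2273 ± 49.3 (SD, n = 3), a log2 fold change of 0.82 (SE 0.08, adjusted p = 0.000111). ZNF805 (chr19:57751972-57774106) had 1285, 1388 and 1408 in si-CTRL and 2296, 2404 and 2265 in si-NEK2, a log2 fold change of 0.77 (SE 0.07, adjusted p = 8.30e-05). In both genes the lowest si-NEK2 library stood well above the highest si-CTRL library.

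**Figure D2:**
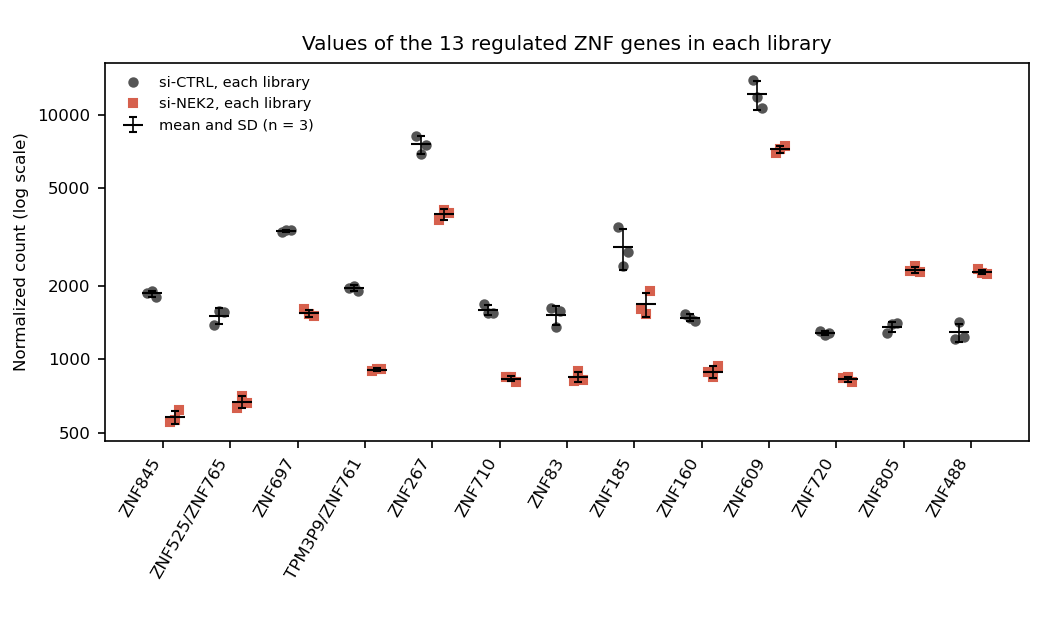
Normalized counts (log axis) of the 13 regulated ZNF genes in each of the 6 libraries, with circles for si-CTRL, squares for si-NEK2, and the mean and SD of each group (n = 3). The groups do not overlap in any of the 13 genes, and the widest si-CTRL spread is that of ZNF609 and ZNF185.

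Several members just missed the fold of 1.5 while their adjusted p was low. ZNF558 had a log2 fold change of -0.56, ZNF823 of 0.55, ZNF652 of 0.51 and the joined row of ZNF10 and ZNF268 of -0.54. The last of these passed the fold of 1.5 with equal totals, upper quartile or quantile scaling and without si-CTRL replicate 1, with log2 fold changes of -0.59 to -0.67. At the edge of membership itself, ZNF580 (mean 1006 normalized counts), ZNF174 (1006) and the joined row of TRAPPC2B, ZNF530 and ZNF547 (1011) lay just inside. ZNF624 (996), ZNF611 (981) and the joined row of ZNF20 and ZNF625 (973) lay just outside, and ZNF611 had a log2 fold change of -1.25.

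The members are not spread evenly over the genome. Chromosome 19 held 61 of the 157, of which 1 was regulated and higher and 5 were regulated and lower, with a median log2 fold change of -0.07. On the other chromosomes 1 of 96 was higher and 6 were lower, with a median of 0.03. Of the 427 further genes of chromosome 19 with a mean of at least 1000, 21 were higher and 30 lower, with a median of 0.05. Members whose starts lie within 500000 bases of the next member were grouped into runs of at least 3, which gave 12 runs with 65 members in all, and the remaining 92 members had a median of 0.04. Genes of the runs are named below after their values were seen.

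**Figure D3:**
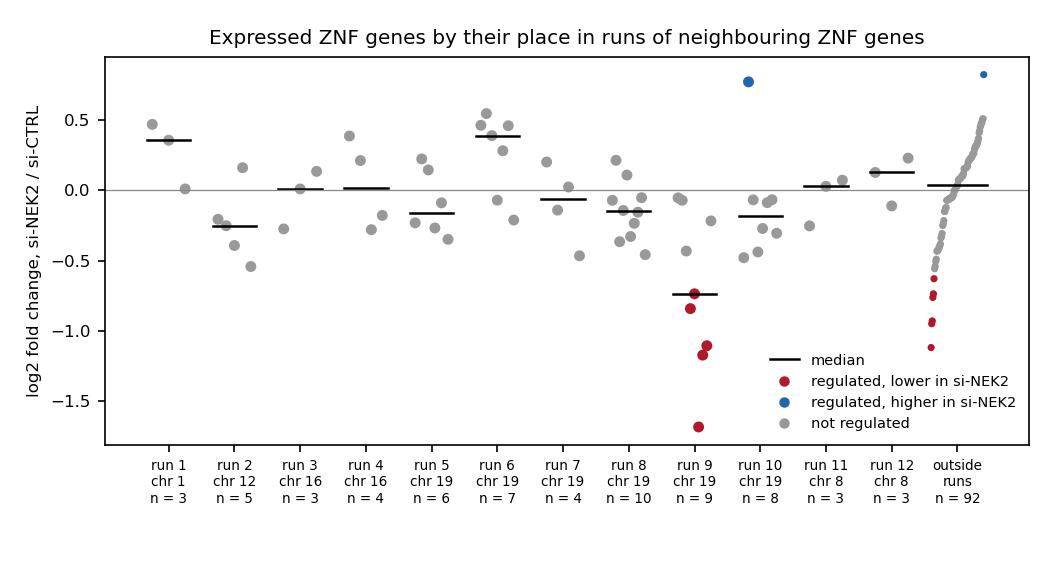
Log2 fold change of each ZNF gene by run of neighbouring genes, with the chromosome and the number of members under each run, black bars for medians and all genes outside runs at the right. Run 9 holds 5 of the 11 regulated decreases and has a median of -0.74, whereas run 6 has a median of 0.39 and run 10 holds ZNF805 at 0.77.

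The run that contains ZNF845 spans chr19:52074490-54083523 (hg19) and most of the genes in its distal part fell. All 9 members had log2 fold changes below 0 (8 without si-CTRL replicate 1), 5 of them were regulated and lower, 6 were lower at an adjusted p of at most 0.05, and the median was -0.74. Of genes with a mean of at least 1000, 7.32% were regulated and lower, and 18.8% were lower by adjusted p. All 6 members that were lower by adjusted p had only the si-CTRL mean at 1000 or above. ZNF175, ZNF841 and ZNF331, with both group means at 1000 or above, were not called. The counts and the median of the members in this run therefore depend on the rule of level. The run also holds 21 ZNF rows with a mean below 1000, which the rule did not admit. Of these, 10 were regulated and lower (6 with quantile normalization) and none was regulated and higher, beside 14.3% and 8.23% of all genes tested. At an adjusted p of at most 0.05, 14 of the 21 were lower, beside 21.3% of all genes tested, and the median of the 21 was -0.51. ZNF28 had the largest decrease among them, at -2.15 on the log2 scale (adjusted p = 6.51e-06), followed by ZNF468 at -1.58 (adjusted p = 1.50e-05), ZNF610 at -1.33, ZNF320 at -1.28 and ZNF611 at -1.25.

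The larger decreases were concentrated in one stretch. From ZNF610 to ZNF761 (chr19:52839498-53961514), a stretch bounded after the values were seen, 14 of 16 ZNF rows were regulated and lower, with a median of -1.12. Of all genes tested, 14.3% were regulated and lower. Other scalings and libraries left out gave 11 to 15 of the 16. The exceptions were ZNF701 at 0.02 (adjusted p = 0.952) and ZNF600 at -0.50. ZNF701 had a mean of only 39.985 normalized counts and an SE of 0.21, and its row overlaps that of ZNF808. Proximal to the stretch 1 of 13 ZNF rows, ZNF577, was regulated and lower. At an adjusted p of at most 0.05, 5 of the 13 were lower, beside 21.3% of all genes tested. The 5 include ZNF649 at -0.51, ZNF480 at -0.37 and ZNF766 at -0.32. The members there were ZNF175 at -0.05, ZNF841 at -0.07 and ZNF616 at -0.43. Distal to it ZNF331 was at -0.22 (adjusted p = 0.0710). The 5 other genes tested within the run had a median of 0.02 and none was regulated. All but ZNF818P lie proximal to the stretch, so that ZNF818P is the sole other gene read within it. PPP2R1A, a scaffold subunit of protein phosphatase 2A in a row shared with a microRNA, was at 0.17. The pseudogene ZNF818P inside the stretch was at -0.79 (adjusted p = 0.110), with a mean of only 19.5 normalized counts.

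**Figure D4:**
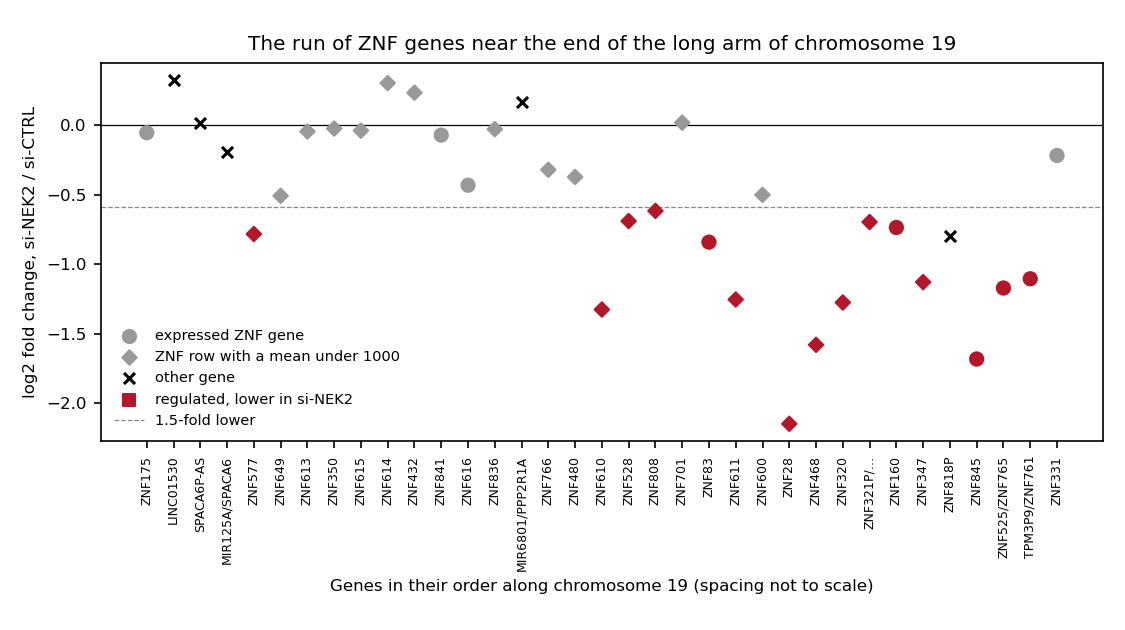
Log2 fold change of the genes tested in the run around ZNF845, in their order along chromosome 19 and not to scale, with circles for the 9 members, diamonds for the 21 ZNF rows with a mean under 1000 and crosses for 5 other genes. Red symbols are regulated and lower, and 14 of 16 ZNF rows from ZNF610 to ZNF761 are red, down to -2.15 for ZNF28, with ZNF701 at 0.02 among them.

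The promoters of 5 genes of this run, those of its 4 member rows with the largest decreases, are alike, and their sequences are shown to let the likeness be seen. Promoter windows of 300 bases, from 250 before to 50 after an annotated start, were taken from RefSeq (GRCh38.p14), where 146 of the 168 ZNF symbols of the member rows had at least 1. The longest run of letters that the windows of ZNF845, ZNF525, ZNF765, ZNF761 and ZNF83 have in common was AATTCCAGGGCTTTTGA, 17 bases long. It was chosen after the values were seen. The windows below start up to 3 bases before it, the capitals mark the shared letters, and the first of them lies at chr19:53333501-53333560 on the plus strand (GRCh38.p14).
ZNF845: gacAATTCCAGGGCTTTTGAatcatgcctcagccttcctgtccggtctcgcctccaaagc
ZNF525: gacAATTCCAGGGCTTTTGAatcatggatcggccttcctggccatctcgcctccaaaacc
ZNF765: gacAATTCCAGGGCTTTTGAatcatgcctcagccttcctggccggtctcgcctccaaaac
ZNF761: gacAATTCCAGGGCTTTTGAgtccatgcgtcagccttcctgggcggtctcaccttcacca
ZNF83: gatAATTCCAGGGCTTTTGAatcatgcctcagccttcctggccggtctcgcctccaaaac

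The letters start 223 to 245 bases before the annotated start, and of all 35116 windows of the same length 10 (0.0285%) hold them on either strand, each on chromosome 19. They belong to 9 annotated genes, and the 4 rows among these that were tested are the 4 member rows just shown, with log2 fold changes of -1.68 to -0.84. The letters were taken from these 4 rows because they fell most. Their decreases were thus fixed by the choice and say nothing of the letters. The windows of the 5 genes are 73.6% to 83.6% identical to one another over their whole length, in global alignment. A further 4 genes of the run have windows at least 70% identical to one of these, and 3 of them were regulated and lower whereas ZNF701 was not. All 4 lie in the stretch from ZNF610 to ZNF761, where 14 of 16 ZNF rows were regulated and lower. The count is therefore not read as a result about the likeness. For these 4 genes the capitals mark the longest part of the shared letters that their windows hold.
ZNF701: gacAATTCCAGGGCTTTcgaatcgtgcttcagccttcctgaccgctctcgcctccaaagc
ZNF468: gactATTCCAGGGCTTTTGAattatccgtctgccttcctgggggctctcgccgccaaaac
ZNF611: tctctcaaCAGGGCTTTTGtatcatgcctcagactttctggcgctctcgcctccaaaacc
ZNF808: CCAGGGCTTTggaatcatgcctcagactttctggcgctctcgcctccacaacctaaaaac
ZNF701 holds 14 of the 17 letters in 1 piece and its window is 86.0% identical to that of ZNF845. Yet its log2 fold change was 0.02. That value rests on a mean of only 39.985 normalized counts (SE 0.21). The row of ZNF701 also overlaps that of ZNF808 in position, and how reads of the overlap were assigned is not known. Whether likeness of the windows goes with the change was not tested. ZNF468 holds 16 and was at -1.58, ZNF611 holds 11 and was at -1.25, and ZNF808 holds at least 10 and was at -0.62. In ZNF808 the capitals begin at the first base of the window, and letters before it were not searched. Other genes of the run fell without such likeness: the window of ZNF160 was 56.4% identical to that of ZNF83, and those of ZNF320 (-1.28) and ZNF347 (-1.13) were 55.8% to 60.7% identical to those of the 5 genes. ZNF28 and ZNF610 were not among the windows compared. A match of letters is a description and not a binding site.

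Other motifs were counted on both strands over all windows of the members. CCGGAAG, the core recognised by many ETS factors, was in 72 of 188 member windows (38.3%) and in 10.3% of all windows. GGGCGG, a GC box, was in 63.3% against 45%, CCAAT was in 43.6% against 34.6%, and TATAAA was in 4.26% against 11.5%. The median GC content was 62.3% in member windows and 58.7% in all windows. Among the members called lower at an adjusted p of at most 0.05, 45.7% of 46 windows held CCGGAAG and 32.6% held CCAAT, whereas among those called higher 31.6% of 38 windows held CCGGAAG and 57.9% held CCAAT. All windows were taken whatever the level of their gene, so that the comparison is not matched for expression. Windows of 1 gene overlap, and copies share their letters, so that these shares are descriptions.

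A run at chr19:11708235-12740676 (hg19) had more members higher than lower. None of its 7 members was regulated at 1.5-fold, but 4 were higher at an adjusted p of at most 0.05 and none was lower, with a median of 0.39, beside 35.5% and 18.8% of genes with a mean of at least 1000. With equal totals or upper quartile scaling these counts were 4 and 1. The 14 ZNF rows of this run below 1000 had a median of 0.16. Of these, 3 were higher and 1 (ZNF788, -0.45) lower at an adjusted p of at most 0.05, beside 21.8% and 21.3% of all genes tested. The share that was higher is thus near that of all genes. ZNF69 was regulated and lower at -1.28 (adjusted p = 0.0544), beside 14.3% of all genes tested. ZNF823 had 1190, 1248 and 1263 normalized counts in si-CTRL and 1833, 1856 and 1717 in si-NEK2, a log2 fold change of 0.55 (SE 0.07, adjusted p = 0.000487). ZNF627 was at 0.46, the joined row of ZNF564 and ZNF709 at 0.46 and ZNF441 at 0.39. In each of these 4 rows the groups did not overlap. The others were ZNF136 at 0.28 (adjusted p = 0.114), the joined row of ZNF700 and ZNF763 at -0.07 and ZNF791 at -0.21 (adjusted p = 0.120).

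In the run at chr19:57702868-58427984 neighbours moved apart. ZNF805, given above, was higher at 0.77, while ZNF264, the member next to it, had 1450, 1530 and 1572 normalized counts in si-CTRL and 1063, 1122 and 1081 in si-NEK2. The log2 fold change of ZNF264 was -0.48 (SE 0.07, adjusted p = 0.00102), so that the libraries of both genes were separated in opposite directions. Of the 8 members 4 were lower at an adjusted p of at most 0.05, beside 18.8% of genes with a mean of at least 1000. The 4 include ZNF417 at -0.30 and ZNF134 at -0.27. The count was 2 without any 1 of si-CTRL replicates 2 and 3 or si-NEK2 replicates 1 and 2. At chr19:44100544-45004575, 4 of 10 members were lower by this measure, beside 18.8% of genes of the level, and none was higher. They ran from ZNF180 at -0.46 and ZNF45 at -0.37 to ZNF226 at -0.23, and no member reached 1.5-fold. Of the 8 ZNF rows of this run below 1000 (median -0.33), ZNF229 was regulated and lower at -1.09, beside 14.3% of all genes tested. At an adjusted p of at most 0.05, 3 of the 8 were lower and none higher, beside 21.3% and 21.8% of all genes tested. A run on chromosome 12 (133498019 to 133783698) held 5 members, of which ZNF84 at -0.39, ZNF26 at -0.25 and the joined row of ZNF10 and ZNF268 at -0.54 were lower by this measure. The share lower among genes with a mean of at least 1000 was 18.8%. ZNF140 was at 0.16 and did not pass.

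None of the 5, 8 and 10 members in the first 3 lists of known roles below was regulated at 1.5-fold, beside 15.2% of genes with a mean of at least 1000. The lists were made from general knowledge of the genes and do not hold ZNF185, ZNF609 or ZNF488, which were regulated. Of 9 listed genes of breast cancer or cell identity, 5 are members. ZNF281, a transcription factor linked to pluripotency and epithelial-mesenchymal transition, had 7256, 6994 and 6878 normalized counts in si-CTRL and 5686, 6063 and 6018 in si-NEK2. Of the 5 it alone passed at an adjusted p of at most 0.05, at -0.25 on the log2 scale (SE 0.06, adjusted p = 0.0106). Without si-NEK2 replicate 1 its adjusted p was 0.0525, and without si-CTRL replicate 1 another 2 of the 5 passed as higher. ZNF217, an oncogene amplified in breast tumours, had 2851, 2164 and 2153 in si-CTRL and 2409, 2527 and 2619 in si-NEK2, so that the groups overlapped, at a log2 fold change of 0.09 (adjusted p = 0.564). ZNF703, an oncogene of luminal tumours, was at -0.07 (adjusted p = 0.663) and its relative ZNF503 at -0.13 (adjusted p = 0.654), both with overlapping groups. The row of ZNF148, which binds GC-rich promoters, also carries SLC12A8 and was at 0.16 (adjusted p = 0.0563).

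Of 16 listed genes of chromatin and cofactor complexes, 8 are members, and 3 of them were higher at an adjusted p of at most 0.05, a share of 37.5% beside 35.5% of genes with a mean of at least 1000. The count was 6 without si-CTRL replicate 1, and 2 with equal totals, with quantile normalization and without si-NEK2 replicate 2. ZNF451, a SUMO ligase, had 3678, 3930 and 3982 normalized counts in si-CTRL and 5117, 5463 and 5409 in si-NEK2, a log2 fold change of 0.46 (SE 0.07, adjusted p = 0.000659). ZNF410, a factor devoted to transcription of CHD4, shares its row with PTGR2, which had 5139, 6223 and 5949 in si-CTRL and 7724, 8552 and 8309 in si-NEK2. The groups did not overlap, and the log2 fold change of the joined row was 0.51 (SE 0.08, adjusted p = 0.00152). CHD4 itself was at 0.17 (adjusted p = 0.0511). ZNF644, a partner of the methyltransferases EHMT1 and EHMT2, was at 0.26 (SE 0.07, adjusted p = 0.0133), but at 0.13 with equal totals (adjusted p = 0.148) and 0.15 with quantile normalization (adjusted p = 0.0915), and its adjusted p was 0.0673 without si-NEK2 replicate 2. ZNF592 was at 0.34 (adjusted p = 0.0753), ZNF131 at 0.17 and ZNF143, which binds promoters and chromatin loop anchors, at 0.12. ZNF335, a component of histone H3 lysine 4 methyltransferase complexes, was at 0.04 and ZNF384 at 0.03, and these last 3 values turned below 0 under some scalings.

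Among 12 listed genes of RNA, ribosome and mitosis, 10 are members and 2 (20.0%) were lower at an adjusted p of at most 0.05, beside 18.8% of genes with a mean of at least 1000. ZNF326, which couples RNA polymerase II to splicing in the DBIRD complex, had 5283, 4779 and 5059 normalized counts in si-CTRL and 3973, 4022 and 3953 in si-NEK2, a log2 fold change of -0.34 (SE 0.06, adjusted p = 0.00310). ZNF330, a nucleolar protein, had 1561, 1626 and 1717 in si-CTRL and 1248, 1295 and 1219 in si-NEK2, a log2 fold change of -0.38 (SE 0.07, adjusted p = 0.00339). In both genes the groups were apart. ZNF593, a factor of 60S ribosomal subunit assembly, was at -0.43 with a standard error of 0.24 (adjusted p = 0.179). ZNF830 was at 0.20, ZNF346, which binds double-stranded RNA, at 0.10, ZNF106 at 0.10, ZNF638 at 0.08 and ZNF598, a ubiquitin ligase of stalled ribosomes, at 0.01. ZNF800 was at -0.05 and ZNF622, another 60S assembly factor, at -0.05. None of these last 7 passed the adjusted p.

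Of 10 listed genes linked to the silencing of transposons and imprinted loci, 3 rows hold a member, and all 3 were lower at an adjusted p of at most 0.05. They are the joined row of ZNF525 and ZNF765 and that of ZNF10 and ZNF268, given above, and ZNF84. ZNF84 had 3403, 3121 and 3143 normalized counts in si-CTRL and 2363, 2519 and 2481 in si-NEK2, without overlap, a log2 fold change of -0.39 (SE 0.07, adjusted p = 0.00205). With 3 rows, and ZNF765 known from earlier results to have fallen, this count says nothing of the list.

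The cofactors through which KRAB zinc finger proteins and the related HUSH complex silence chromatin were read from a list of their own, with 30 rows tested. Regulated at 1.5-fold were ATF7IP2, which was higher, and UHRF1 and RLIM, which were lower, so that 3 rows (10.0%) were called beside 22.5% of all genes tested and 15.2% of genes with a mean of at least 1000, the level of 27 of the 30 in both groups. At an adjusted p of at most 0.05, 10 were higher and 4 lower, with a median log2 fold change of 0.10, where genes of that level were called at 35.5% and 18.8%. The split was 8 and 7 with equal totals, with a median of -0.03, and 9 and 7 with quantile normalization, with a median of -0.02. TRIM28, whose row also carries a microRNA, had 18861, 21323 and 20932 normalized counts in si-CTRL and 27464, 25299 and 26028 in si-NEK2. No si-NEK2 library was as low as the highest si-CTRL library, and the log2 fold change was 0.37 (SE 0.07, adjusted p = 0.00301). SETDB1 had 1185, 1207 and 1198 in si-CTRL and 1481, 1679 and 1545 in si-NEK2, a log2 fold change of 0.39 (SE 0.08, adjusted p = 0.00365). EHMT2, a histone H3 lysine 9 methyltransferase, was at 0.57. Of the HUSH subunits, FAM208A (TASOR) was at -0.24 (adjusted p = 0.0849) with overlapping groups, while PPHLN1 and MPHOSPH8 were at 0.45 and 0.37.

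In the opposite direction UHRF1, the reader of hemimethylated DNA that recruits DNMT1 in S phase, had 16658, 15062 and 15165 normalized counts in si-CTRL and 5379, 4792 and 4573 in si-NEK2. Its log2 fold change was -1.67 (SE 0.08, adjusted p = 4.31e-06), and its row also carries a microRNA. RLIM, a ubiquitin ligase, was at -0.64, the HP1 gene CBX5 at -0.37 and MORC2, which acts with HUSH, at -0.25, each with an adjusted p of at most 0.0394. ATF7IP2, a relative of the SETDB1 partner ATF7IP, had 292, 324 and 257 in si-CTRL and 498, 604 and 609 in si-NEK2, a log2 fold change of 0.97 (adjusted p = 0.000446). ATF7IP itself at -0.21, DNMT1 at -0.03, HDAC1 at 0.09 and HDAC2 at 0.11 did not pass.

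**Figure D5:**
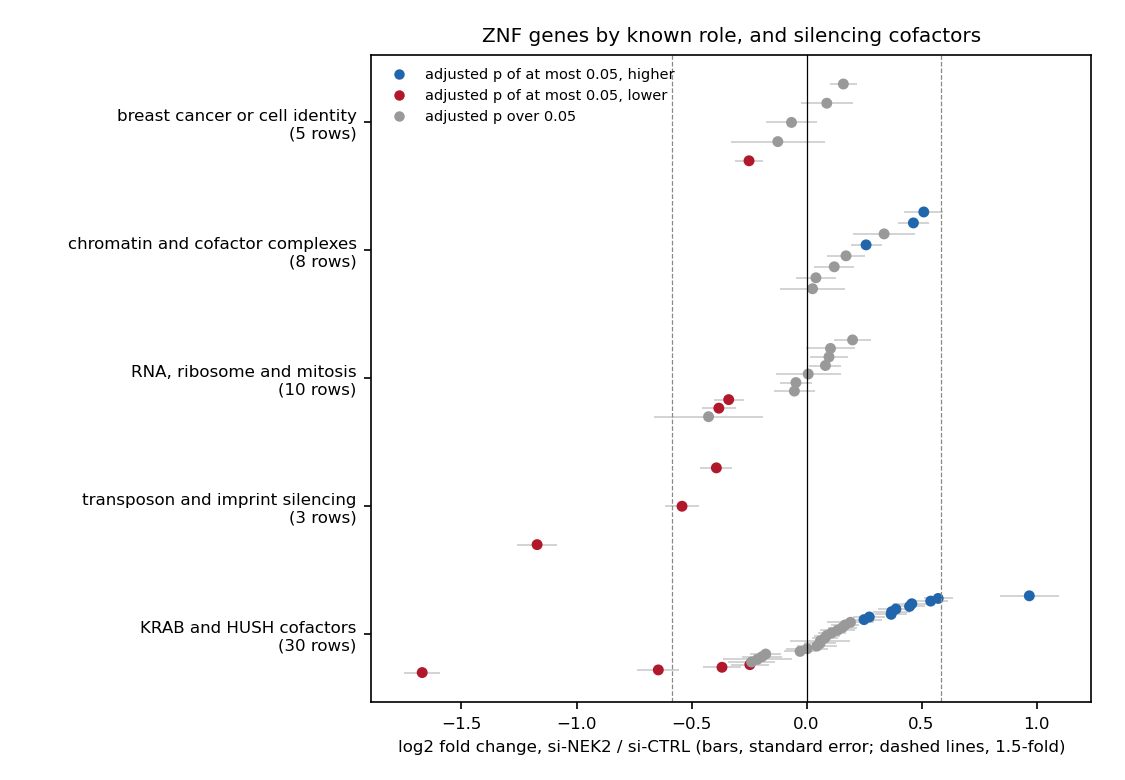
Log2 fold change with standard error of the members in each list of known roles and of the 30 silencing cofactors, where blue and red mark an adjusted p of at most 0.05 in the higher and lower direction and dashed lines mark 1.5-fold. All but 1 of the ZNF rows lie within the dashed lines, the joined row of ZNF525 and ZNF765 at -1.17, and the cofactors run from UHRF1 at -1.67 to ATF7IP2 at 0.97.

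Replicates of the members agreed about as closely as those of other genes of the level. The median within-group SD on the log2 scale was 0.09 for the members and 0.10 for all genes with a mean of at least 1000, and the median coefficient of variation was 7.21% in si-CTRL and 4.52% in si-NEK2. The widest spread was that of ZNF593, with 1254, 1640 and 1780 normalized counts in si-CTRL and 1472, 1344 and 762 in si-NEK2. ZNF428 had 1041, 1214 and 1567 in si-CTRL and 1827, 1589 and 1064 in si-NEK2, and ZNF503 had 1242, 1549 and 1811 in si-CTRL and 1723, 1550 and 1006 in si-NEK2. In all 3 genes the groups overlapped, si-CTRL replicate 1 was the lowest of its group and si-NEK2 replicate 3 the lowest of its own. Among the 10 members of widest spread, si-NEK2 replicate 3 was the lowest of its group in 9 and si-CTRL replicate 1 the farthest from its group in 7. Without si-NEK2 replicate 3 the log2 fold change of ZNF503 was 0.11 in place of -0.13, and without si-NEK2 replicate 1 that of ZNF593 was -0.61. The latter passed 1.5-fold, at an adjusted p of 0.0965 from limma across all genes.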

How the data were processed

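PolyA plus libraries were made from MDA-MB-231 cells (3 si-CTRL and 3 si-NEK2, grouped by sample title). The authors deposited 1 signal value per gene and library, reads assigned to a FAST DB v2016_1 gene after DESeq2 size factor normalization, with hg19 coordinates. The submitters' processing notes name STAR 2.4.0, SAMtools, Picard, FastQC and DESeq2. How reads that fit several genes were treated, whether counting used strand and whether the groups shared a preparation batch are not given in the sources used here. All values were whole multiples of 1 read (100% within a tolerance of 0.05), from which reads were recovered. Assigned reads per library came to 52625492, 67124351 and 69355385 in si-CTRL and to 87454509, 79663803 and 66957898 in si-NEK2. The table holds 51665 rows without a symbol.

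Genes with a mean of at least 10 were tested with limma 3.58.1 in R 4.3.3 (lmFit, eBayes with a trend) on log2(value + 1), a scale that understates changes of low genes. The study's thresholds were used (p-values up to 0.05, changes of 1.5-fold or more), with Benjamini-Hochberg adjustment over all 18717 genes. The members, lists and runs were chosen with earlier results of these data known. Genes named are the up to 10 largest regulated increases and decreases without overlap, the members in 4 lists of known roles, the 3 members each side of the mean of 1000 and the 3 of widest spread; a list of silencing cofactors and one of cell type markers were also read. Alternatives were other pseudocounts (0.1 or 5), filters (none, or a mean of 50), 3 other scalings, eBayes without trend, a replicate block, each library left out, a fold of 2, adjusted p-values, other definitions of members, and count tests of the recovered reads with DESeq2 1.42.0 or the quasi-likelihood test of edgeR 4.0.16 with TMM. On simulated data with 200 of 18717 genes changed 2-fold, limma recovered 99.5% and called 0.605% of the unchanged genes. The simulation gave every gene the same dispersion and had no outlying library, so that these rates are not those of the real data. Promoter letters were searched and aligned in Python 3.11.15. Protein features were not analysed here.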

Additional observations from a re-analysis of the deposited data

How the results depend on the processing

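The 13 members regulated were called again under every alternative fit, with edgeR, DESeq2, either pseudocount, either filter, each scaling and each library left out, and the count itself was 13 with edgeR and DESeq2. It was 21 with equal totals, 4 at a fold of 2, and 13 to 16 with a library left out. By definition of members it was 24 at a mean of at least 500, 4 at 2000 and 6 at 1000 in both groups. The count over all genes, 4213, was 1637 at a fold of 2 and 3913 to 4436 with a library left out, and the cofactors, 3, were 1 at a fold of 2 and 3 to 4 with a library left out. NEK2 ran from -3.42 to -3.19 with a library left out. The median of the members, -0.05, was -0.17 with equal totals, -0.11 with upper quartile scaling, -0.0144 at a mean of at least 500 and -0.0134 at 2000, 0.00 (-0.00405) at 1000 in both groups, 0.00 (0.000937) for rows with 1 symbol, and -0.036 to -0.0104 with a library left out.

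Members close to 0 changed sign. With equal totals the log2 fold change was -0.0079 for ZNF143, -0.10 for ZNF384, -0.031 for ZNF106, -0.12 for ZNF598, -0.046 for ZNF638, -0.088 for ZNF335, -0.040 for ZNF217, -0.024 for ZNF346 and -0.12 for ZNF174. With upper quartile scaling it was -0.040 for ZNF384, -0.059 for ZNF598, -0.025 for ZNF335 and -0.056 for ZNF174, and with quantile normalization -0.045 for ZNF384, -0.0011 for ZNF106, -0.024 for ZNF598 and -0.0020 for ZNF638. DESeq2 gave -0.0083 for ZNF384 and -0.0045 for ZNF174, and edgeR -0.0063 and -0.0038. With each library left out in turn the value crossed 0 for ZNF384 (-0.079 to 0.21), ZNF598 (-0.096 to 0.15), ZNF335 (-0.017 to 0.084), ZNF622 (-0.15 to 0.017), ZNF703 (-0.17 to 0.059), ZNF503 (-0.28 to 0.11) and ZNF174 (-0.056 to 0.089).

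Samples of the same number did not deviate together (correlations of -0.091, 0.047 and -0.15). With 3 libraries per group such correlations cannot show whether the numbers pair the libraries. With the replicate block 13 members were regulated. Each group holds 3 libraries, and si-CTRL replicate 1, the library with fewest reads, stands apart, which limits the small changes most. Values of joined rows and of near-identical copies in the runs are less certain than the reads imply, since how shared reads were assigned is not known. Why the values differ between scalings was not tested.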

Other observations

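ZNF genes below the level of 1000 were also read. Of these 224 rows, 29 (12.9%) were regulated, beside 22.5% of all genes tested, 7 higher and 22 lower, with a median log2 fold change of -0.04. The split depends on the scaling, with 2 higher and 35 lower (median -0.17) with equal totals and 17 higher and 15 lower (median 0.10) with quantile normalization. The largest increase was that of ZNF114, at 2.395 (adjusted p = 0.000835, mean of 66.9 normalized counts), and the next were ZNF784 at 0.79 and ZNF292 at 0.71. ZNF860, with a mean of 79.4, was at -2.33 (adjusted p = 0.000512), and ZNF239, with a mean of 920, at -0.77. These genes were named after their values were seen.

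Other families of zinc finger genes with a mean of at least 1000 were read beside the ZNF genes. Of 25 ZBTB rows 2 (8.0%) were regulated and higher and none lower, beside 7.92% and 7.32% of genes with a mean of at least 1000. Their median log2 fold change was 0.12. At an adjusted p of at most 0.05, 11 were higher and 4 lower, beside 35.5% and 18.8% of genes with a mean of at least 1000. With equal totals the split was 7 and 7 (median -0.0062), and with upper quartile scaling 8 and 6. Of 4 ZSCAN rows 1 was regulated and higher, of 2 ZKSCAN rows and 7 ZFP rows none was regulated, and of 5 KLF rows 1 was regulated and lower. Among genes with a mean of at least 1000, 15.2% were regulated, and these families are too small for a share to be read. All 5 KLF rows had log2 fold changes below 0 in every scaling tried, with a median of -0.44 (-0.21 without si-CTRL replicate 1).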
